A study of Mus musculus with 9 samples.

Results

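Cirbp (cold-inducible RNA-binding protein, ENSMUSG00000045193) and Rbm3 (RNA-binding motif protein 3, ENSMUSG00000031167) were followed by name through a single-cell count table of mouse brain. They are 2 of its 18634 genes. C57BL/6 mice (C57BL/6 J in the study's text) aged 9 to 11 weeks slept normally (NS) or were kept awake for 12 h from lights on (SD). A further group recovered after 12 h of deprivation (RS, for which 12 h and 24 h are both given). Tissue was taken at ZT12, the time of lights off. Brainstem, cortex and hypothalamus cells of 3 pooled animals made 1 library per region and sleep group, 9 libraries in all, after papain dissociation and a passage over myelin removal beads that depletes debris. The animals were wild type and no transgene was used.

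Both genes encode small glycine-rich RNA-binding proteins with a single RNA recognition motif, and both are known as the cold-inducible members of that family: their transcripts and proteins rise with mild cooling and fall with warming. In rodent cortex their transcripts are known to fall during extended waking, when brain temperature is higher than in sleep. Cirbp binds transcripts of clock genes and affects which polyadenylation site is used. Rbm3 supports translation in cooled cells and has been linked to the protection of synapses after cooling. Their levels in brain are therefore of interest in a study of sleep loss, both by cell type and by sleep group.

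In the GENCODE M21 annotation of GRCm38, Cirbp lies at chr10:80165985-80172786 on the plus strand and Rbm3 at chrX:8138975-8145880 on the minus strand. The coding stretch that holds the RNA recognition motif is shown for both genes because it is what makes them relatives. It covers bases 1 to 255 of the coding sequence of Cirbp-202, which is 516 bases long without its stop codon, and of Rbm3-201, which is 462 bases long, and it is the ungapped stretch from the start codon with the most matches over mismatches. Capitals mark the positions at which the 2 genes carry the same base.

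Cirbp: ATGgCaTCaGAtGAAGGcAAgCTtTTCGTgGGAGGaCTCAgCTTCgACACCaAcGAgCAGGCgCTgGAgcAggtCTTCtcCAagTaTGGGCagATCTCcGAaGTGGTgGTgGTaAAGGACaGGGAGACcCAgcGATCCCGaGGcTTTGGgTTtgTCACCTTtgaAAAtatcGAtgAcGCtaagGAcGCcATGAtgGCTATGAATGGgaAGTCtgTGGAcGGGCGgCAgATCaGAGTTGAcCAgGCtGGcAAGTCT

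Rbm3: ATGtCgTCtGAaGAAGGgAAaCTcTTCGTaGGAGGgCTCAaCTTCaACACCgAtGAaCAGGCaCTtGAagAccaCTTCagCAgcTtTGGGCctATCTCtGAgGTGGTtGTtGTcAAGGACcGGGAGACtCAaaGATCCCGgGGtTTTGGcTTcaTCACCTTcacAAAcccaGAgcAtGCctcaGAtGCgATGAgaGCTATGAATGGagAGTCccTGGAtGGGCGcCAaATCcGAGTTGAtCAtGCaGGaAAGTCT

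The stretches shared 183 of 255 bases (71.8%), and the longest shared run was 11 bases. No run as long as a sequencing read was thus common to Cirbp and Rbm3 in this stretch. For Rbm3 the annotation holds processed pseudogenes that match its coding sequence closely: Rbm3-ps matched at 459 of 462 aligned bases, Gm10156 at 455 of 462 and Gm13624 at 444 of 462. None of these pseudogenes is a row of the table. A transcript of Phospho2, which is a row, matched Rbm3 on the opposite strand at 296 of 305 aligned bases. Reads that fit several places could have been lost to Rbm3. The coding sequence of Cirbp had no such match outside its own locus. Only coding sequences were searched, while reads are counted at transcript ends. The sequence past the stop codon was therefore not compared for either gene. Rbm3os, annotated on the opposite strand, overlaps 452 bases at the start of Rbm3, and it held 11 UMIs (unique molecular identifiers, each counted as 1 captured transcript) in all libraries together.

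The table held 31468255 UMIs in 29571 cells, and the libraries had 2575 to 3916 cells and a median of 402 to 1055 UMIs per cell. Libraries are numbered by the order in which their codes first appear. The codes are not explained, so 8 libraries carry no region or sleep group here and no sleep group was compared with another. Library 7 is the brainstem of NS mice, by its barcodes. All 1999 barcodes at hand from the study's cell type list for that sample occur in it, against 5 to 13 in any other library. Across libraries, 549 of 29015 distinct barcodes occurred more than once. Gh, the growth hormone transcript of the pituitary, took 25.3%, 27.9% and 32.1% of the UMIs of libraries 4, 5 and 6 and at most 0.00755% in the others. Hemoglobin transcripts took 6.79% in library 7 and mitochondrial transcripts 2.55% to 12.3%. Levels are given as CPM, the UMIs of a gene per 1000000 UMIs of all genes, with an exact 95% Poisson interval, and shares with a Clopper-Pearson interval. These intervals cover counting error only. Each region and sleep group had 1 library, so there was no replicate error, and with 8 libraries unassigned there was no test between groups.

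Over all cells, Rbm3 reached 171 CPM (167 to 176), with 5390 UMIs in 4384 cells. Cirbp reached 111 CPM (107 to 115), with 3493 UMIs in 3043 cells. Rbm3 ranked 690th and Cirbp 1135th of 18634 genes by level. Both transcripts were thinly sampled: 14.8% of cells had a Rbm3 UMI and 10.3% a Cirbp UMI, 762 and 362 cells had 2 or more, and the richest cells had 10 and 5. UMIs are counted at transcript ends, so these levels do not grow with transcript length, although capture of the 2 transcripts may differ.

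The level of Cirbp in libraries 1 to 9 was 117, 115, 119.6, 145, 150.3, 85.1, 124, 96.5 and 84.7 CPM. Libraries 4 and 5 were highest and libraries 6 and 9 lowest, and every library overlapped with its neighbours in the order of levels. The highest library stood 1.78-fold (1.53 to 2.06) above the lowest. The level of Rbm3 in the same libraries was 198, 188, 209, 147, 119.7, 111, 247, 139 and 192 CPM. Here the order had 2 gaps at which neighbouring intervals did not overlap: library 7 (233 to 263) stood above library 3 (194 to 224), and library 2 (169 to 208) above library 4 (135 to 159). The highest library stood 2.23-fold (2.02 to 2.47) above the lowest. A highest-to-lowest ratio of at least 2-fold was reached by Rbm3 and not by Cirbp, and by 70.0% of the 2796 genes of at least 50 CPM, whose median ratio was 2.65. A smaller ratio was found in 19.4% of these genes for Cirbp and 38.7% for Rbm3. These shares depended on the setting: over all genes with CPM + 10 the share was 68.0% for Rbm3, and averaged over common classes it was 50.8% for Cirbp. In cells of at least 1000 UMIs it was 3.4% for Cirbp, whose ratio was then 1.62, with library 3 highest (133 CPM) and library 6 lowest (82.2 CPM). In such sums, a change in the mix of cells and a change of level within cells cannot be told apart.

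**Figure D1:**
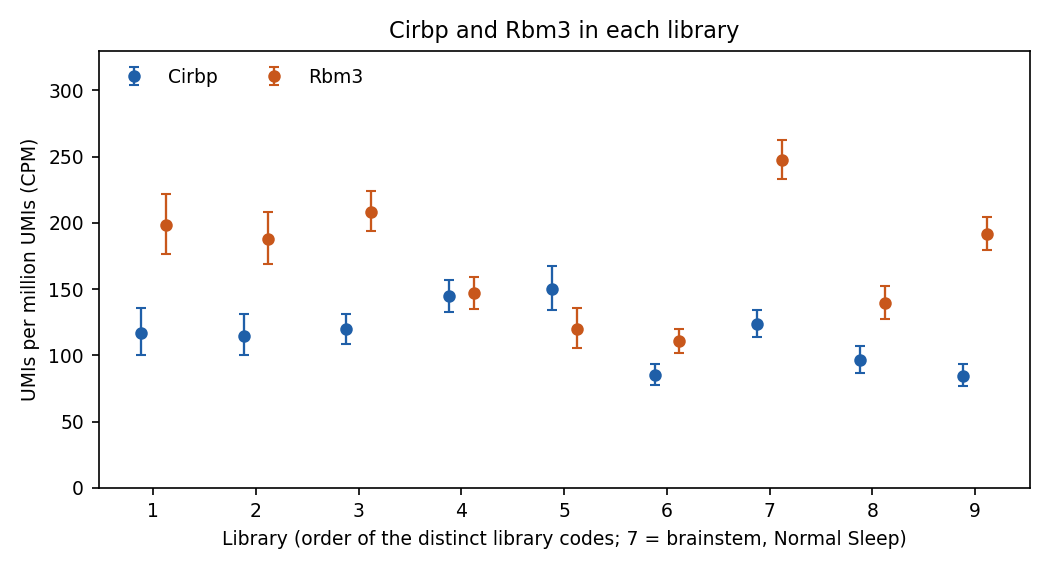
Level of Cirbp (blue) and Rbm3 (orange) in each of the 9 libraries, in CPM, with exact 95% Poisson intervals of counting error. Rbm3 is highest in library 7 at 247 CPM, and libraries 4 and 5 are where the 2 genes lie closest or cross.

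The denominator mattered in libraries 4 to 6, where Gh fills part of the total. With mitochondrial, hemoglobin and Gh transcripts left out of the total, Cirbp rose to 205, 224 and 130.3 CPM in these libraries against 102 to 146 CPM in the other 6. Rbm3 came to 209, 179 and 169.6 CPM there, against 160.0 CPM in library 8 and 205 to 292 CPM in the other 5. The Cirbp ratio of highest to lowest was then 2.19 and the Rbm3 ratio 1.83, so that the 2-fold mark was passed by the other gene, as by 65.3% of genes. Cell detection at an equal depth of 500 UMIs gave 3.69% (library 9) to 8.29% (library 5) of cells with Cirbp and 4.9% (library 6) to 10.7% (library 7) with Rbm3. Before thinning these shares ran from 6.52% to 13.7% and from 8.91% to 21.8%. Thinning left out 5745 cells, of which 1735, 2036 and 1149 were in libraries 1, 2 and 5. No cell type is known to lack either transcript, so no background share from free RNA in the droplets was estimated. Shares of cells with a UMI are therefore detection only, here and by cell type. The lowest thinned shares of a class were those of HbVC-like cells (named after hemoglobin-expressing vascular cells), 0.855% (0.177 to 2.48) with Cirbp and 1.42% (0.464 to 3.29) with Rbm3, in which mitochondrial, hemoglobin and Gh transcripts fill most of the total.

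The share that Rbm3 takes of the UMIs of both genes needs no denominator from other transcripts. It was 60.7% (59.7 to 61.7) over all cells. In libraries 1 to 9 it was 62.9%, 62.1%, 63.6%, 50.4%, 44.3%, 56.6%, 66.7%, 59.1% and 69.4%. Libraries 4 and 5 were the lowest, and library 5 (40.2 to 48.5) was the only one with more UMIs of Cirbp than of Rbm3.

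The 1999 listed cells of library 7 carry the study's own cell types. In them Rbm3 was highest in endothelial cells, which line the vessels, with 332 CPM (289 to 379, 573 cells). Macrophages had 301 CPM (195 to 444), arterial smooth muscle cells (VSMCA) 276 CPM (220.4 to 341) and the cells listed as oligodendrocytes 254 CPM (159 to 385). Microglia, the resident immune cells, had 215 CPM (176 to 259), ependymocytes (EPC) 211 CPM (148 to 293), pericytes 203 CPM (137 to 290) and astrocytes 147 CPM (95.2 to 217). The interval of endothelial cells lay above those of microglia and of astrocytes. Every pair of neighbours in the order overlapped. The levels of 3 types left their intervals under other settings: pericytes had 71.6 CPM in cells of at least 1000 UMIs, below astrocytes (176 CPM), and the cells listed as oligodendrocytes had 108 CPM without the 5% of cells with the most UMIs. Under that last setting the hemoglobin-expressing vascular cells (HbVC, 19 cells in all) had no Rbm3 UMI. Glutamatergic neurons were low at 38.1 CPM (4.62 to 138), which rests on 2 UMIs in 55 cells.

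Cirbp had a different order. VSMCA were the highest type of at least 50 cells with 201 CPM (154 to 258, 230 cells), followed by pericytes with 162 CPM (104 to 241) and macrophages with 145 CPM (74.7 to 252). EPC had 129 CPM, astrocytes 124 CPM, microglia 122 CPM and endothelial cells 105 CPM (81.4 to 133). The intervals of VSMCA and endothelial cells did not overlap, while those of all neighbours did. Endothelial cells, highest for Rbm3, were thus lowest for Cirbp among the types with over 10 Cirbp UMIs. Glutamatergic neurons had 3 UMIs (57.2 CPM, 11.8 to 167) and HbVC 2 UMIs in 19 cells. The 18 cells listed as other neurons had 9 Cirbp UMIs, or 306 CPM (140 to 580.1), and 6 Rbm3 UMIs. The 43 cells listed as oligodendrocytes had 150.1 CPM of Cirbp (79.9 to 257), and the 1 listed cell of unknown type had 1 Rbm3 UMI and no Cirbp UMI.

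**Figure D2:**
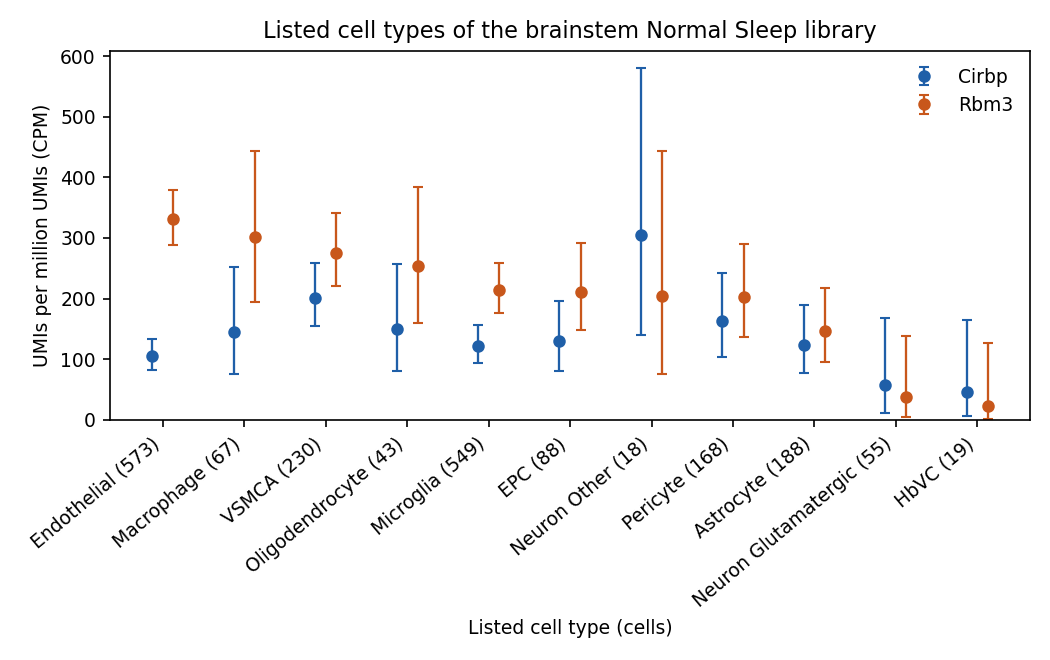
Level of Cirbp (blue) and Rbm3 (orange) in 11 cell types listed for the brainstem library of NS mice, in CPM with exact 95% Poisson intervals; the number of cells is in brackets. Endothelial cells have the highest Rbm3 (332 CPM) and one of the lower Cirbp levels (105 CPM), with no overlap between the 2 intervals.

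Over the 8 types of at least 50 cells, the ratio of highest to lowest was 3.52 (1.15 to 17.5) for Cirbp and 8.69 (2.38 to 72.3) for Rbm3. The lowest type of both ratios was the glutamatergic neurons, so the ratios rest on 3 and 2 UMIs. A ratio of at least 2-fold between types was also reached by 98.2% of the 2869 genes of at least 50 CPM, with a median of 8.26. A smaller ratio than that of Cirbp was found in 18.0% of genes, and than that of Rbm3 in 51.3%. With clusters of the same library in place of the listed types these shares were 43.9% and 5.06%, so the order of the 2 genes by evenness turned, and Rbm3 was then highest in macrophage-like cells. When each cell was thinned to 500 UMIs, Rbm3 was found in 13.04% (8.98 to 18.1) of VSMCA, 12.6% (10.0 to 15.6) of endothelial cells, 8.86% (6.6 to 11.6) of microglia and 8.65% (5.02 to 13.7) of astrocytes. The labels of the listed types were checked against marker genes: all markers of 9 of the types stood at least 2-fold above the other listed cells, as did 8 of 9 for other neurons, but only 1 of 7 for oligodendrocytes. By clustering, 38 of the 43 cells listed as oligodendrocytes fell in the fibroblast or leptomeningeal-like class and 13 of the 19 listed HbVC in the endothelial-like class, so the kind of cell behind these 2 labels is uncertain. Of the 168 listed pericytes, 115 fell in the pericyte-like and 47 in the fibroblast or leptomeningeal-like class, and their 203 CPM of Rbm3 compare with 322 CPM (263 to 391) in the pericyte-like cells of the same library.

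To follow the 2 genes within a kind of cell in every library, all 29571 cells were clustered together without Cirbp and Rbm3. Of the 29 clusters, 26 could be named from markers and gave 13 classes, written "-like" because the names rest on markers alone. The 3 unnamed clusters held 3527 cells (11.9%). The largest, of 2727 cells, was led by Gh, Dlk1, Ghrhr and Pou1f1, genes of growth hormone cells of the pituitary, but passed only 2 markers. It stayed outside the pituitary endocrine-like class and had 56.2 CPM of Cirbp and 90.6 CPM of Rbm3. The unnamed cells together had 72.9 CPM of Cirbp and 96.35 CPM of Rbm3. Without mitochondrial, hemoglobin and Gh transcripts in the total they had 164 and 217 CPM. In the classes summed over libraries, Rbm3 was highest in macrophage-like (277 CPM), VSMCA-like (268 CPM), endothelial-like (253 CPM) and pericyte-like cells (243 CPM), cells of vessels and their borders. It was lowest, outside HbVC-like cells, in astrocyte-like cells (93.1 CPM, 82.4 to 105). In cells of at least 1000 UMIs, however, pituitary endocrine-like cells had less Rbm3 (103 CPM) than astrocyte-like cells (117 CPM). Cirbp was highest in pituitary stem or folliculostellate-like (186 CPM), pituitary endocrine-like (148 CPM), VSMCA-like (143 CPM) and neuron-like cells (137 CPM, 127 to 147). The place of pituitary endocrine-like cells depended on the clustering and on the total used. At a coarser resolution the class held 5768 cells in place of 3041 and had 104 CPM. This was below VSMCA-like (141 CPM), neuron-like (134 CPM), astrocyte-like (113 CPM) and microglia-like cells (108 CPM). Without mitochondrial, hemoglobin and Gh transcripts in the total, the coarser class had 190 CPM, above those classes (161, 148, 127 and 118 CPM). These sums weight the libraries by their cells, and the pituitary classes come almost only from libraries 4 to 6. Cirbp was low in endothelial-like cells (80.9 CPM, 71.5 to 91.1) and in choroid plexus epithelium-like cells (45.1 CPM, 26.7 to 71.2, 18 UMIs in 86 cells). HbVC-like cells had 9.87 CPM of Cirbp and 21.4 CPM of Rbm3, from 6 and 13 UMIs. Without mitochondrial, hemoglobin and Gh transcripts in the total they had 110.0 and 238 CPM.

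Endothelial-like and astrocyte-like cells, already far apart for Rbm3 in the sums above, were compared library by library. Rbm3 in endothelial-like cells was 328, 246, 297, 255, 197, 216, 302, 205 and 214 CPM in libraries 1 to 9. In astrocyte-like cells it was 77.9, 103, 72.3, 97.0 and 136 CPM in libraries 1 to 5 and 119, 81.5 and 118 CPM in libraries 7 to 9, library 6 having too few such cells (26). The endothelial-like level was higher in 8 of 8 libraries, with intervals apart in 7. Summed over libraries the ratio was 2.71 (2.36 to 3.13), and 31.8% of 2877 genes were at least 2-fold higher in endothelial-like cells, the median gene being 1.33-fold higher. For Cirbp the direction was the opposite: endothelial-like cells had 0.717 times (0.608 to 0.845) the astrocyte-like level. They were lower in 7 of 8 libraries, but with intervals apart in only 1, and 18.0% of genes were at least 2-fold lower. With mitochondrial, hemoglobin and Gh transcripts left out of the total, Rbm3 was higher in 8 of 8 libraries, with intervals apart in 7, and Cirbp lower in 7 of 8, with intervals apart in 0. With all genes in the total, endothelial-like Rbm3 was above VSMCA-like in 3 of 8 libraries, macrophage-like in 3 of 6 and pericyte-like in 2 of 6. Intervals were apart in 0 of these. It was above microglia-like in 8 of 8, EPC-like in 5 of 6 and fibroblast or leptomeningeal-like in 5 of 6, with intervals apart in 1 each.

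The share of Rbm3 in the pair put both directions in 1 number. It was 75.8% (73.1 to 78.3) in endothelial-like cells and 45.2% (41.2 to 49.3) in astrocyte-like cells. By library it ran from 71.2% (library 2) to 94.7% (library 6, from 19 UMIs) in endothelial-like cells and from 38.0% (library 1) to 56.8% (library 9) in astrocyte-like cells, so the ranges did not meet. It was higher in endothelial-like cells in 8 of 8 libraries and the intervals were apart in 6. The contrast was seen in each of the clusters that make up the classes: 71.8% to 81.9% in the 3 endothelial-like clusters and 41.7% to 48.5% in the 3 astrocyte-like clusters. One endothelial-like cluster, of 398 cells, was led by Sema3g but also by Slc7a10, Slc6a11 and Slc4a4, transporters known from astrocytes. It had the lowest endothelial-like share, 71.8% (62.4 to 80.0), and without it the class had 76.2%. The part of mixed cells in these levels was not tested.

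**Figure D3:**
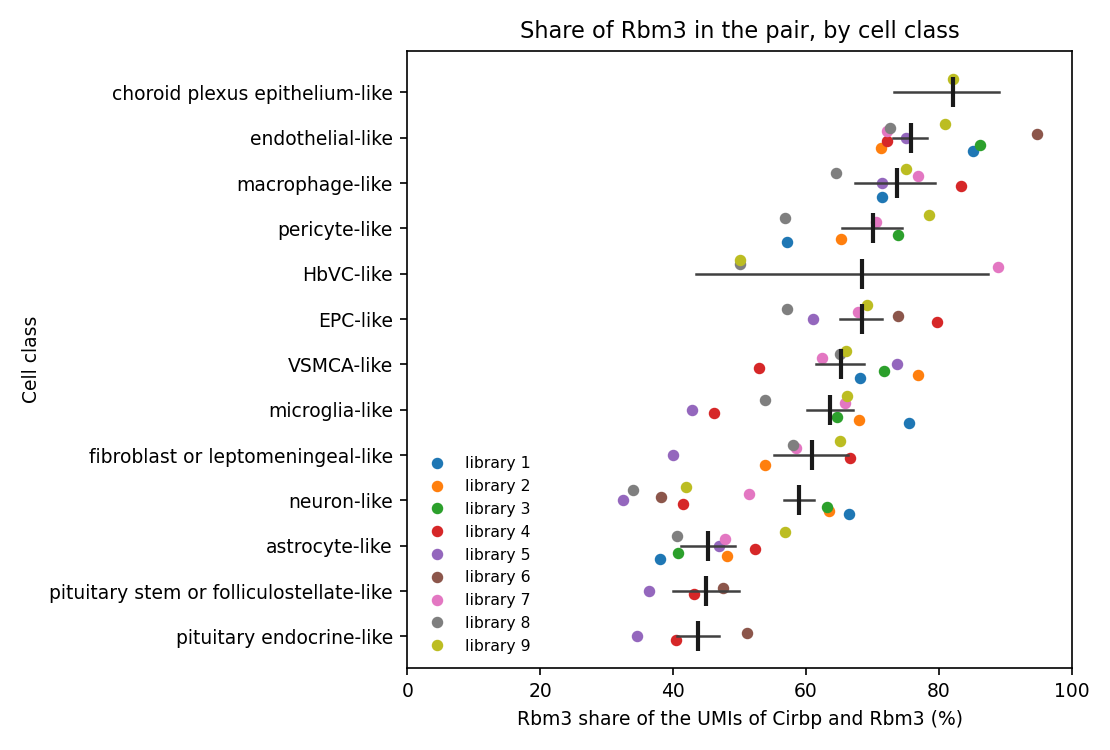
Share of Rbm3 among the UMIs of Cirbp and Rbm3, in percent, for each cell class: coloured points are libraries with at least 50 cells of the class, the upright bar is the class over all libraries and the grey line its exact 95% interval. Endothelial-like points lie between 71.2% and 94.7%, astrocyte-like points between 38.0% and 56.8%, and neuron-like points fall into a lower and a higher range.

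Other vascular and immune classes lay between these. The share was 73.7% in macrophage-like, 70.1% in pericyte-like, 65.2% in VSMCA-like and 63.6% in microglia-like cells, and 68.3% in EPC-like cells. VSMCA-like cells were above astrocyte-like cells in 8 of 8 libraries, with intervals apart in 2, and microglia-like cells in 6 of 8, with intervals apart in 2. Choroid plexus epithelium-like cells, which make cerebrospinal fluid, had 82.2% (73.3 to 89.1), but nearly all came from library 9. Pituitary endocrine-like and pituitary stem or folliculostellate-like cells had 43.7% (40.5 to 46.9) and 44.9% (40.02 to 49.9), near that of astrocyte-like cells. At the coarser resolution pituitary endocrine-like cells had 49.8%, outside the interval above, and without the 5% of cells with the most UMIs the stem or folliculostellate-like cells had 52.9%.

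Neuron-like cells fell into separate ranges. Rbm3 in them was 238, 205 and 233 CPM in libraries 1 to 3, and 129, 97.1, 72.8, 107, 82.5 and 127 CPM in libraries 4 to 9. Each level of the first set was above each of the second. The intervals of libraries 1 and 3 lay above those of libraries 4 to 9, and that of library 2 (177 to 235) overlapped only with library 9 (78.6 to 194). Cirbp did not show this split, with 120.4, 118 and 135 CPM in libraries 1 to 3 and 101 to 202 CPM in libraries 4 to 9. The Rbm3 share was accordingly 63.2% to 66.4% in libraries 1 to 3 and 32.5% to 51.4% in libraries 4 to 9. Different clusters held the neuron-like cells of the 2 sets. In libraries 1 to 3 they were mainly in a cluster led by Nrgn, Slc17a7 and Camk2a, genes of excitatory neurons, with 231 CPM of Rbm3 (215 to 247) and a share of 64.8%. In libraries 4 to 9 they were mainly in a cluster led by Avp, Oxt, Sst and Npy, neuropeptide genes, and by Gad1, with 112 CPM of Rbm3 (94.7 to 131) and a share of 41.1%. A further cluster, led by Camk2a and Penk and also found mainly in libraries 1 to 3, had 181 CPM of Rbm3 (143 to 225) and a share of 53.7% (45.4 to 61.9). Kind of neuron and library therefore cannot be told apart here. Endothelial-like cells had more Rbm3 than neuron-like cells in 9 of 9 libraries, with intervals apart in 4. The ratio was 1.2 to 1.38 in libraries 1 to 3, which hold most of the neuron-like cells, and 1.69 (library 9) to 2.97 (library 6) in libraries 4 to 9. Summed over libraries it was 1.29 (1.17 to 1.41), while 18.2% of 3870 genes were at least 2-fold higher. For Cirbp the summed ratio was 0.591 (0.512 to 0.681), with endothelial-like cells lower in 8 of 9 libraries and intervals apart in 5, while 41.8% of genes were at least 2-fold lower and the median gene stood at 0.661.

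**Figure D4:**
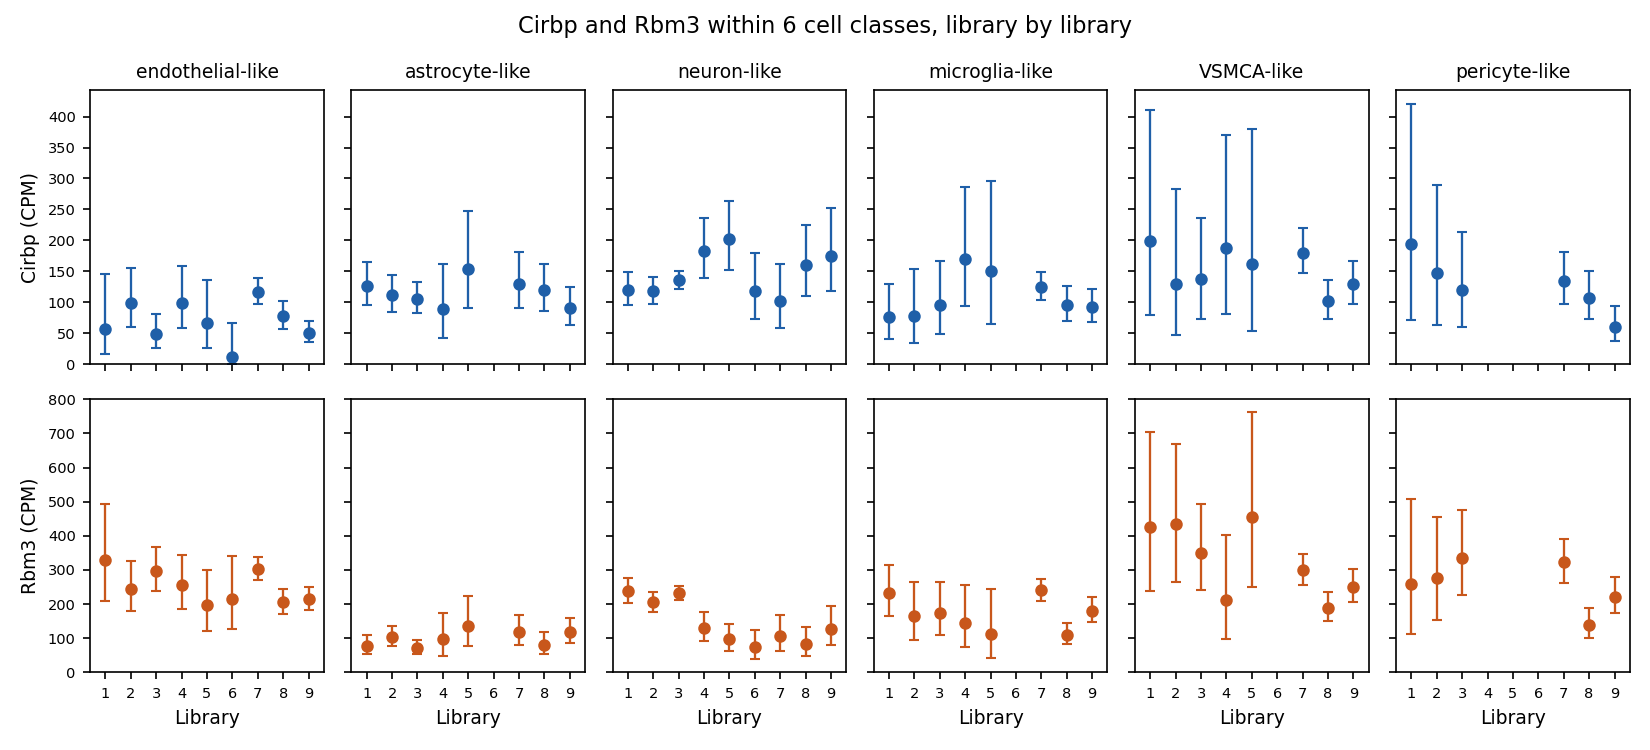
Level of Cirbp (top row, blue) and Rbm3 (bottom row, orange) in 6 cell classes, by library with at least 50 cells of the class, in CPM with exact 95% Poisson intervals. Rbm3 stays between 197 and 328 CPM in endothelial-like cells and between 72.3 and 136 CPM in astrocyte-like cells, and in neuron-like cells its highest levels, 205 to 238 CPM, are those of libraries 1 to 3.

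Libraries also differed within classes. Among 9 classes present in at least 5 libraries, library 8 had the lowest Rbm3 in 4 (EPC-like, VSMCA-like, microglia-like and pericyte-like cells), and no other library was lowest in more than 2. Libraries 7, 8 and 9 entered all 9 classes, but library 3 entered only 6 and library 6 only 3. How often other genes were lowest in library 8 was not measured. In microglia-like cells Rbm3 was 232, 165, 174, 146 and 113 CPM in libraries 1 to 5 and 240.3, 110.5 and 181 CPM in libraries 7 to 9. The interval of library 8 (83.5 to 144) lay below that of library 7 (210 to 274). The lowest and highest libraries were apart in 5 of the 9 classes for Rbm3 (the 4 above and neuron-like cells) and in 1 for Cirbp, endothelial-like cells. Taking any 2 libraries in place of the extremes, which can rest on few UMIs, intervals were apart in 7 classes for Rbm3 and in 4 for Cirbp (VSMCA-like, endothelial-like, neuron-like and pericyte-like cells, the last not when mitochondrial, hemoglobin and Gh transcripts are left out of the total). The share of all genes with such gaps or ratios within classes was not measured. Rbm3 also had more UMIs than Cirbp (5390 against 3493), which narrows its intervals. No order of the 2 genes is read from these counts. In VSMCA-like cells Cirbp was 180.1 CPM (146.5 to 219) in library 7 and 101 CPM (73.2 to 136) in library 8. For Rbm3 the ratios of highest to lowest library were 2.68 in EPC-like, 2.42 in VSMCA-like, 2.17 in microglia-like, 2.41 in pericyte-like and 3.27 in neuron-like cells. Cirbp in endothelial-like cells was 57.1, 99.3, 47.7, 98.7, 65.6, 12.0, 117, 77.2 and 50.5 CPM in libraries 1 to 9. Library 7 (96.7 to 139) lay above libraries 3 (26.1 to 80.1), 6 (0.304 to 67.0, from 1 UMI) and 9 (35.6 to 69.6).

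Pituitary endocrine-like cells occurred almost only in libraries 4, 5 and 6, which are also the libraries rich in Gh. Cirbp was 198, 194 and 99.98 CPM in them, and the interval of library 6 (86.2 to 115) lay below the other 2. Rbm3 was 135, 102 and 105 CPM, with overlapping intervals. With mitochondrial, hemoglobin and Gh transcripts left out of the total, Cirbp was 260.5, 355 and 141 CPM, with library 6 (122 to 163) still below the other 2, and Rbm3 was 177, 187 and 148 CPM. The class joins 3 clusters, led by Pomc, Tshb and Prl, by Lhb, Cga and Fshb, and by Cidea with the immediate early genes Ier2, Junb and Fos. Cirbp was 136 CPM in the first, 193 CPM in the second and 139 CPM in the third.

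The 2 transcripts were seldom seen in the same cell. With cells thinned to 500 UMIs, 92 of 23826 cells had both. Rbm3 was found in 7.19% (5.83 to 8.74) of cells with Cirbp and in 7.89% (7.54 to 8.25) of cells without it. In endothelial-like cells the shares were 6.25% (2.74 to 11.9) and 11.4% (10.3 to 12.6), and in neuron-like cells 9.86% (6.29 to 14.6) and 9.0% (8.01 to 10.1). These pairs of intervals overlapped. Of the 13 classes compared, in 1 draw of UMIs, EPC-like cells were the one whose intervals did not overlap, with 0 of 60 cells (upper limit 5.96%) against 8.47% (7.08 to 10.0). No order is read from it, given the number of classes.

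The genes most like each member were ranked by Pearson's r of log2(CPM + 10), as a description over few points that share depth and makeup. Over the 9 libraries, Cirbp and Rbm3 had an r of 0.070, and Rbm3 ranked 1269th of 2795 genes by likeness to Cirbp. The genes most like Cirbp were Tmed4 (0.831), H13 (0.770), Impact (0.759), Gaa (0.752) and Podxl2 (0.746). Those most like Rbm3 were Hist3h2a (0.926), Aurkaip1 (0.911), Hprt (0.910), Psma4 (0.906) and Banf1 (0.896). Over the 8 listed types of library 7 the r of the pair was 0.779, which placed Rbm3 138th of 2868 genes for Cirbp, but Spearman's rho was 0.214. Cirbp ranked 372nd for Rbm3, and 96 genes had an r above 0.9 with Rbm3. Glutamatergic neurons were the lowest type for both genes, from 3 and 2 UMIs, and r without them was not measured. Most alike over types were Mrps28 (0.978), 2010107E04Rik (0.954), Ilk (0.954), Siva1 (0.948) and Oat (0.922) for Cirbp, and Zfand6 (0.983), Ufm1 (0.980), Eif3k (0.978), Cnbp (0.978) and Smek2 (0.973) for Rbm3. The 2 lists of 5 shared no gene over libraries or over types.

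Other lists of genes were read the same way, counting those with at least 2-fold between the highest and lowest library among genes of at least 50 CPM, against the 70.0% of all genes. Of the heat shock genes, which encode chaperones induced by heat, 4 of 9 reached 2-fold, with a median ratio of 1.85. Hspa8 ran from 687 (library 8) to 1168 CPM (library 3) and Hsp90aa1 from 457 (library 4) to 1084 CPM (library 9). The list summed to 2776 CPM in library 4 and 4041 CPM in library 9, while Cirbp was higher in library 4 (145 CPM) than in library 9 (84.7 CPM) and Rbm3 lower (147 against 192 CPM). Gh took 25.3% of the UMIs of library 4, which lowers the CPM of other genes there. The heat shock sum was not measured with Gh left out of the total. Of the cold shock domain genes, 1 of 2 reached 2-fold: Ybx1 ran from 220.3 CPM (library 6) to 572 CPM (library 7). With all genes in the total, these were also the lowest and highest libraries of Rbm3. The sum of the housekeeping genes had the same extremes (5169 and 11798 CPM). Without mitochondrial, hemoglobin and Gh transcripts in the total, Rbm3 was lowest in library 8 (160 CPM). Of the related RNA recognition motif genes, 1 of 4 did (Hnrnpa1, 67.0 to 149.9 CPM). Genes linked to Cirbp or Rbm3 as targets or regulators gave 4 of 5, among them Rtn3, a target of Rbm3 in neurons, with 106 CPM in library 6 and 665 CPM in library 3, and Srsf5, with 106 and 241 CPM. Immediate early genes gave 6 of 6, with a median of 6.32 and a sum of 898 (library 3) to 2748 CPM (library 5). Housekeeping genes gave 4 of 5, with a median of 2.61, and the Rbm3 ratio of 2.23 was below those of Actb, Gapdh, Eef1a1 and Ppia (2.49 to 4.0).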

How the data were processed

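The authors mapped single-cell 3′ reads to GRCm38 with Cell Ranger (2.2.0, from the submitters' processing notes) and deposited the filtered UMI counts of all libraries as 1 table. The values are raw counts per gene and cell. Barcodes with the listed cell types came from the study's supplementary list, of which 1999 entries were at hand; other libraries stayed unassigned. The study tested cells against cells; cells of 1 library are not replicates, so that test was not repeated. UMIs of Cirbp and Rbm3 were summed per library, listed type or class and divided by the total of all genes. Intervals were exact (95%, scipy 1.17.1). Cells were clustered without the 2 genes on 2000 variable genes and 13 principal components with 20 neighbours (Leiden, resolution 1, leidenalg 0.10.2). Clusters were named where at least 3 markers passed 2-fold in 10% of cells and the class held the most markers among the 10 leading genes or, where no class held any there, the most passing markers (2 astrocyte-like and 1 pituitary endocrine-like cluster); this rule was loosened after the first clusters were seen, with unchanged marker lists. No doublet caller was run, and an alternative left out the 5% of cells with the most UMIs. Classes and types needed 50 cells, and ranges were set beside genes of at least 50 CPM. The coding sequences (GENCODE M21, APPRIS principal transcripts) were searched for near copies with minimap2 2.31-r1302. Scripts were tested on simulated data. The genes named are the 2 members, the listed groups, and for each member the 5 genes most alike over libraries and over types. Members and lists were chosen with earlier results of these data known.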

Additional observations from a re-analysis of the deposited data

How the results depend on the processing

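With mitochondrial, hemoglobin and Gh transcripts left out of the total, the ratio of highest to lowest library was 2.19 for Cirbp and 1.83 for Rbm3, so that the 2-fold mark, reached by 65.3% of genes, changed hands, and the r of the pair over libraries turned from 0.070 to -0.059. In cells of at least 1000 UMIs the Rbm3 ratio was 2.93 (library 1 over library 5; 85.6% of genes reached 2-fold), and the Rbm3 share in astrocyte-like cells 50.4%, against 78.2% in endothelial-like cells. Averaging over the 2 classes present in every library, an alternative chosen after seeing the data, gave 2.17 for Cirbp (library 4 over library 6) and 1.97 for Rbm3 (library 1 over library 8), with 58.0% of genes at 2-fold. With clusters in place of the listed types, the ratio between types was 48.0 for Cirbp, its lowest class being HbVC-like cells at 3.78 CPM from 1 UMI, and 12.8 for Rbm3, macrophage-like over HbVC-like cells. Averaging over cells and leaving out the 5% of cells with the most UMIs kept each library and type ratio within its interval. Averaging over cells moved 4 library levels out of their intervals and left 14 within. Those moved were Cirbp in libraries 3 and 4 and Rbm3 in libraries 3 and 5. Leaving out the 5% of cells with the most UMIs moved 2 type levels and left all 18 library levels within. In cells of at least 1000 UMIs 7 library levels moved and 11 stayed. Counting every gene with CPM + 10, 36.2% of genes reached 2-fold between libraries and 68.0% had a smaller ratio than Rbm3. At a Leiden resolution of 0.5, 171 of 176 class levels stayed within their intervals, and the Rbm3 share of pituitary endocrine-like cells was 49.8%. Without the 5% of cells with the most UMIs it was 52.9% in pituitary stem or folliculostellate-like cells. The pair share alternatives were also chosen after seeing the data. No paired analysis was possible because the codes of 8 of the 9 libraries are not explained, so sleep groups could not be compared with region as a block. Each region and sleep group had 1 library, so no replicate could be left out. Among the named types, the levels of glutamatergic neurons and HbVC rest on the fewest UMIs, 1 to 3 of each gene.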
